A study of Mus musculus with 6 samples.

Results

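The peaks described here are N6-methyladenosine (m6A) peaks that lie opposite another peak: their exonic blocks share at least 1 base with the exonic blocks of a peak on the other strand of the same table. A script applied this rule to each of 2 deposited tables, and it found 1602 of 24127 peaks (6.64%) in the ClpP table and 1694 of 23681 peaks (7.15%) in the ClpX table. They form 840 and 886 pairs, on 1382 of 13334 and 1461 of 13085 genes that carry a peak. Pairs are named by both genes, with the plus-strand gene before the minus-strand gene. Members were chosen by their measured peak positions, which come from the same libraries as the peaks' values, so all that follows is description.

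The series applied m6A-seq, in which RNA bound by an m6A antibody (the IP library) is sequenced beside the RNA before capture (the input library), to mouse male germ cells labelled as spermatocytes from postnatal day 35. ClpP cKO and ClpX cKO cells lack Clpp or Clpx through Stra8-Cre, whose promoter is active in male germ cells, so somatic cells of the testis keep the gene. WT cells were the control. Each of the 6 groups (ClpP cKO, ClpX cKO and WT, IP and input) held 1 library of primary cells, and both comparisons use the same WT libraries. With 1 library per group no difference has a replicate check. Each table gives 1 log2 fold change per peak for the 4 libraries it compares, so no value per library can be shown, and the depth is unknown. The sources used here do not say how many animals gave each library.

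m6A is laid down on RNA during transcription by a methyltransferase complex, most often inside a short motif around GGACT, and many sites lie in long exons and near stop codons. Genes on opposite strands can overlap where their ends converge (tail to tail), where they start beside each other and run apart (head to head), or where 1 lies inside the other (nested), and the overlapping RNAs are complementary. An assay that keeps track of strand assigns each read to 1 of the genes. In mitochondria, ClpX unfolds matrix proteins and feeds them to the peptidase ClpP, and together they form the protease ClpXP.

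The sources used here do not say whether reads were counted by strand. Without strand, reads of a gene and of its opposite-strand partner cannot be told apart, and this holds for every pair below. Sharing of reads between partners was not tested.

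Germ cell markers carried peaks in both tables. Of 10 spermatocyte markers, 9 had at least 1 peak in the ClpP table, as did 6 of 6 spermatid markers and 5 of 6 spermatogonial markers. In the ClpX table the counts were 7 of 10, 6 of 6 and 5 of 6. Sertoli cell markers had a peak for 4 of 6 genes in both tables. Leydig cell markers had a peak for 2 of 5 genes (ClpP) and 4 of 5 (ClpX), peritubular markers for 1 of 2 in both, the endothelial marker for neither, and immune markers for 0 of 3 (ClpP) and 1 of 3 (ClpX). A peak needs both expression and enrichment, so these counts are a weak check of the cell type. Only Sycp3, Tnp1 and Gfra1 among these markers lay opposite another peak, Sycp3 in the ClpP table alone. The part of other cell types in the results was not tested.

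Promoters are shown for some pairs ordered head to head, because there the bases shared by both peaks can lie at or before the start of a gene. The windows are 300 bases long and span a RefSeq gene start (GRCm38.p6), most of each lying before the start. They are read 5′ to 3′ on the gene's own strand, and have in capitals the bases that belong to both peaks in the ClpX table. Twnk lies on the plus strand at chr19:45005413-45005712, Gpn3 on the plus strand at chr5:122372258-122372557, Fam216a on the minus strand at chr5:122372293-122372592, Ubl5 on the plus strand at chr9:20644553-20644852 and Fbxl12 on the minus strand at chr9:20644718-20645017.
Twnk promoter: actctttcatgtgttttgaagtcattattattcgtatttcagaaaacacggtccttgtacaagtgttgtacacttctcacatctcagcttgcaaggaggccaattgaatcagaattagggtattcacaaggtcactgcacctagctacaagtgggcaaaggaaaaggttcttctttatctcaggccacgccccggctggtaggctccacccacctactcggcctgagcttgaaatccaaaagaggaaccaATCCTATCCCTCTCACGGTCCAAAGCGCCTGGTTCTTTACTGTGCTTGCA
Gpn3 promoter: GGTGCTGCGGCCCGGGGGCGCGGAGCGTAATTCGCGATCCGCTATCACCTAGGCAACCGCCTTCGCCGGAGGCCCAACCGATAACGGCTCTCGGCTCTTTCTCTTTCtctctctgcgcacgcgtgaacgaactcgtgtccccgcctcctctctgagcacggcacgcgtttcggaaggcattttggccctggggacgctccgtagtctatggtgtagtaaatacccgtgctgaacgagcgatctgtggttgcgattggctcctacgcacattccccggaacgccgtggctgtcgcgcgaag
Fam216a promoter: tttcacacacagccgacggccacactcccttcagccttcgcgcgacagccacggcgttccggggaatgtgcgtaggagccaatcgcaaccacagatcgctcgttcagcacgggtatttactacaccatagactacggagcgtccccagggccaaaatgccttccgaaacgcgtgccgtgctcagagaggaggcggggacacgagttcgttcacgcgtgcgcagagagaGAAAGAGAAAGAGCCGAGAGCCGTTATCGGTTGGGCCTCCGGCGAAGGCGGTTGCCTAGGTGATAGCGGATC
Ubl5 promoter: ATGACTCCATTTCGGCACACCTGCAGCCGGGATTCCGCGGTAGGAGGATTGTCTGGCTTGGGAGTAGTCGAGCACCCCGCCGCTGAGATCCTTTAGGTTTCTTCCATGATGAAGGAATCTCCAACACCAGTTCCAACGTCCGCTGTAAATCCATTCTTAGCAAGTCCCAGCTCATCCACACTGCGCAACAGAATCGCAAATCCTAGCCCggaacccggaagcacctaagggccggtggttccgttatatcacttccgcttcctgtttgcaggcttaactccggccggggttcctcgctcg
Fbxl12 promoter: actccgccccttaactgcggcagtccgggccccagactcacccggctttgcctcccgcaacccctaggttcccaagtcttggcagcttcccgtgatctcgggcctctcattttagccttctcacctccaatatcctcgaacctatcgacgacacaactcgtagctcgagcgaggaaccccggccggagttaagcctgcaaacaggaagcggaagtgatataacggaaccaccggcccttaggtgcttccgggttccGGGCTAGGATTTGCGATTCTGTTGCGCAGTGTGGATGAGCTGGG

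In the Twnk window the 50 shared bases are those at the end, past the start site. The Gpn3 and Fam216a windows hold 107 and 72 shared bases, and the Ubl5 and Fbxl12 windows hold 209 and 44. In the Gpn3 and Ubl5 windows the shared bases come first and lie wholly before the window's start site. The Gpn3 gene span starts at 122372508, and its ClpX peak ends before that, at 122372383. In the Fam216a and Fbxl12 windows the shared bases come last and reach past the start site. The letters GGACT and their reverse complement AGTCC were searched in each window, so that both strands were read. None of the Twnk, Gpn3 and Fam216a windows holds either. The printed Ubl5 window holds AGTCC 1 time, inside the shared bases, which reads GGACT on the strand of Fbxl12. The Fbxl12 window holds AGTCC 1 time, outside the shared bases. A second Ubl5 window (chr9:20643086-20643385), not printed, holds 86 shared bases of the ClpX pair called lower there, and GGACT 1 time outside them. Windows of Cntd1 and its head-to-head partner (ClpX), also not printed, hold AGTCC and GGACT, respectively, 1 time, outside the shared bases. Of all 32851 promoter windows of this length, 45.5% hold GGACT or AGTCC (26.1% GGACT, 26.0% AGTCC). Shared bases reached a promoter window in 102 of 840 pairs (12.1%) in the ClpP table and 133 of 886 (15.0%) in the ClpX table, and in 50 of 102 and 69 of 130 head-to-head pairs.

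Short regulatory RNAs annotated inside the shared bases are shown by their mature sequences, since a peak over their host region also covers them. The sequences are RefSeq's (GRCm38.p6), with the seed (bases 2 to 8) in capitals, and no 2 of them share a seed. The choice to show them was made after the pairs were seen.
mmu-miR-6340: gUCAGCAGcagcuucgcuuuggc
mmu-miR-6244: gGGGGCGUggaauuaucgggu
mmu-miR-671-5p: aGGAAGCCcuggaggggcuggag
mmu-miR-671-3p: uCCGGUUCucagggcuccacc
mmu-miR-1896: cUCUCUGAuggugggugaggag

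Mir6340 lies on chromosome 2 (173701030 to 173701148, minus strand) opposite Rab22a, a small GTPase of endosomes, and Mir6244 on chromosome 9 (52115623 to 52115739, plus strand) opposite Zc3h12c, a CCCH zinc-finger protein. For both, the whole hairpin lies in the bases shared by both peaks. The log2 fold change in the authors' deposited table for ClpP was -0.72 for Rab22a and -0.78 for Mir6340, and in that for ClpX it was 0.53 and 0.01. Mir6244 and Zc3h12c had -0.26 and 0.05 in the authors' deposited table for ClpP and -0.78 and 1.81 in that for ClpX. Negative values mean lower enrichment in the knockout, a direction taken from the order knockout, then WT, in the names of the tables, since nothing else states it. Mir671 lies inside the peaks of Chpf2 and Smarcd3 (chromosome 5, 24592114 to 24592211, plus strand). This pair had -0.45 in the authors' deposited table for ClpP for Chpf2, an enzyme of chondroitin sulfate synthesis, and -0.43 for Smarcd3, a subunit of BAF chromatin remodellers, and neither was called. Mir1896 (chromosome 13, 21445160 to 21445240, plus strand) lies in the 908 bases shared by 4930470G03Rik and Zscan26, a zinc-finger protein. These had -2.71 and -1.67 in the authors' deposited table for ClpX, both called, and -0.15 and -0.27 in that for ClpP, neither called.

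Partners overlapped over most of the shorter peak. The median of the shared bases was 207.5 in the ClpP table (quartiles 129 and 350.5, range 2 to 2342) and 204 in the ClpX table (quartiles 138.25 and 369.25, range 4 to 2337). This was 94.7% and 94.8% of the shorter peak at the median, and 60.0% and 62.9% of the longer. The shorter peak lay wholly inside its partner in 237 pairs (28.2%, ClpP) and 256 pairs (28.9%, ClpX), and both peaks had identical blocks in 3 and 4 pairs. Most members had 1 partner: 1525 of 1602 and 1619 of 1694, with 76 and 73 having 2. No pair joined peaks of the same gene name.

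The plot of peak positions shows what such pairs look like, from a near-complete overlap of Tesk1 and Cd72 to the 14 bases that join mt-Nd5 and mt-Nd6. A pair of 1 table can hold several peaks, as for Dedd with Nit1.

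**Figure D1:**
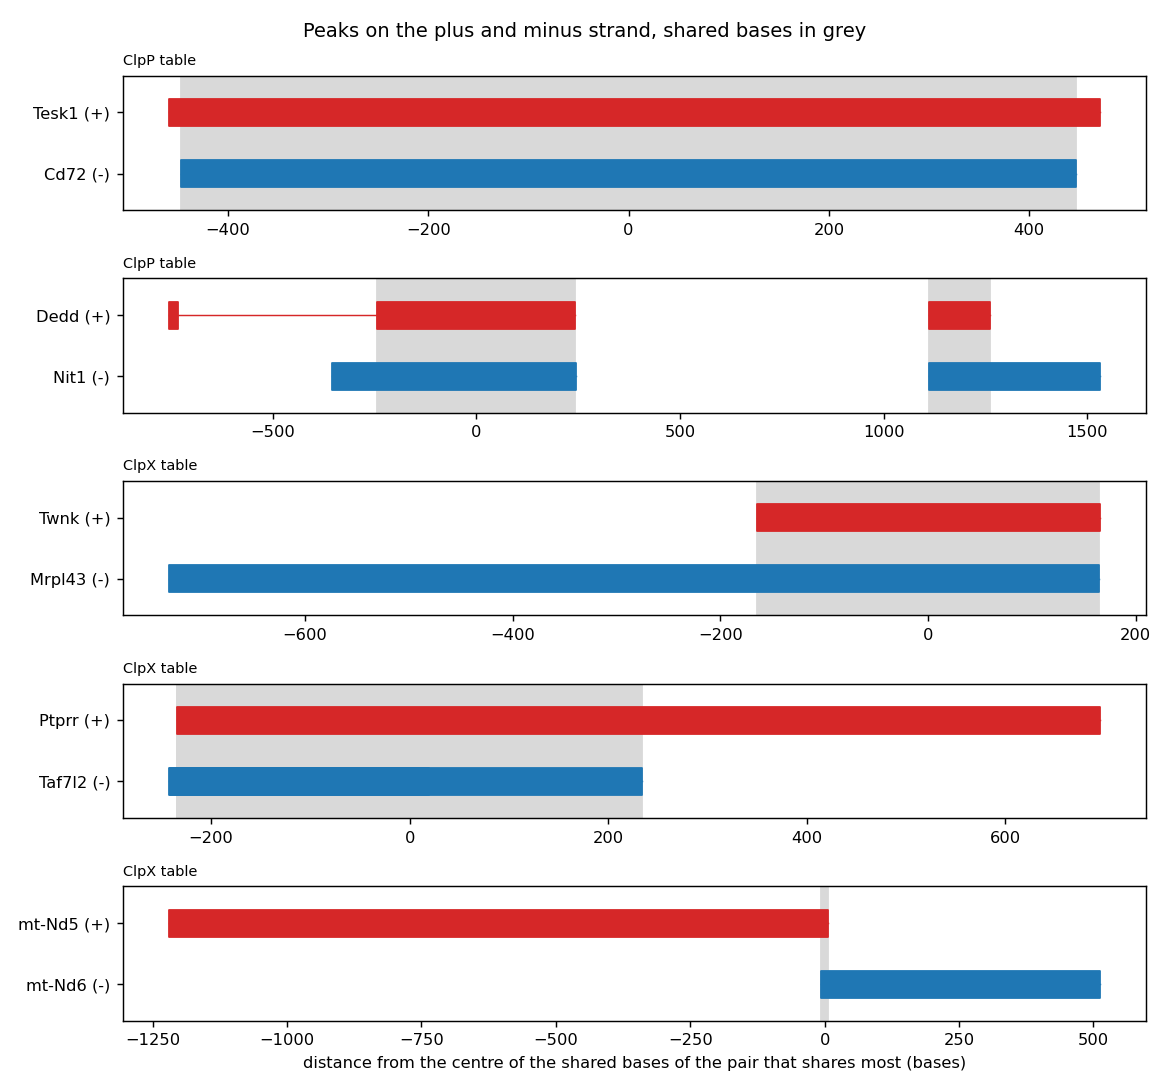
Positions of the peaks of 5 gene pairs, in bases from the centre of the bases shared by the pair that shares most; red bars are plus-strand blocks, blue bars minus-strand blocks, thin lines join blocks of 1 peak and grey marks shared bases. Tesk1 and Cd72 overlap almost along their whole length, Twnk lies inside the Mrpl43 peak but for 1 base, the Ptprr peak faces 3 Taf7l2 peaks that are drawn over each other, and mt-Nd5 and mt-Nd6 touch over 14 bases.

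Most pairs with known gene positions were ordered tail to tail. Both genes had a RefSeq span in 546 pairs of the ClpP table and 558 of the ClpX table. Of these, 367 (67.2%) and 343 (61.5%) were tail to tail, 102 (18.7%) and 130 (23.3%) head to head, and 77 (14.1%) and 85 (15.2%) nested. These classes give the order of the gene spans, which need not overlap. The spans overlapped in 298 and 281 tail-to-tail pairs and in 65 and 88 head-to-head pairs. Both peaks lay within 500 bases of their gene's 3′ end in 110 and 98 tail-to-tail pairs. Read from the peaks' own starts and ends over all pairs, without gene spans, the tail-to-tail share was 30.48% and 28.56%. By position, 33.6% of members with a span (441 of 1314, ClpP) and 30.2% (413 of 1366, ClpX) lay within 500 bases of the gene's 3′ end, against 20.8% and 19.7% of the other peaks. Members also lay within 500 bases of the 5′ end in 19.1% and 24.2%, against 11.8% and 13.6% of the other peaks. Genes named only by a prediction or clone (Gm, Rik and the like) carried 31.3% of members in the ClpP table and 31.6% in the ClpX table, against 15.8% and 14.5% of the other peaks. Pairs of a predicted gene with another gene numbered 422 and 454, pairs of protein-coding genes 354 and 353, and pairs of a long non-coding RNA with a protein-coding gene 172 and 181. These shares were not tested, since peaks of 1 gene are not independent.

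At the median, members were somewhat longer and somewhat less enriched than other peaks. Its length was 327 bases at the median (ClpP) and 328 (ClpX), against 301 and 300 for the other peaks. The fold enrichment of IP over input, which the authors gave once per peak for all libraries of a table, was 7.02 and 7.52 at the median, against 8.38 and 8.98 for the other peaks. Peaks of more than 1 block made up 29.7% and 28.7% of members, against 29.7% and 27.4% of the other peaks. In a pair of a predicted gene with another gene, the predicted gene's peak was the longer in 34.6% (ClpP) and 34.4% (ClpX), with median lengths of 299 and 300 bases, against 364.5 and 361 for the partner.

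Members were spread over the autosomes and scarce on the X chromosome. On autosomes they made up 5.13% to 9.11% of the peaks of a chromosome in the ClpP table and 4.38% to 9.43% in the ClpX table, highest on chromosome 9 in both. On the X chromosome they were 14 of 722 (1.94%, exact 95% binomial interval 1.06 to 3.23) and 18 of 667 (2.70%, 1.61 to 4.23). The intervals cover counting error only and treat peaks as independent. None of the 41 and 34 peaks on the Y chromosome was a member.

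**Figure D2:**
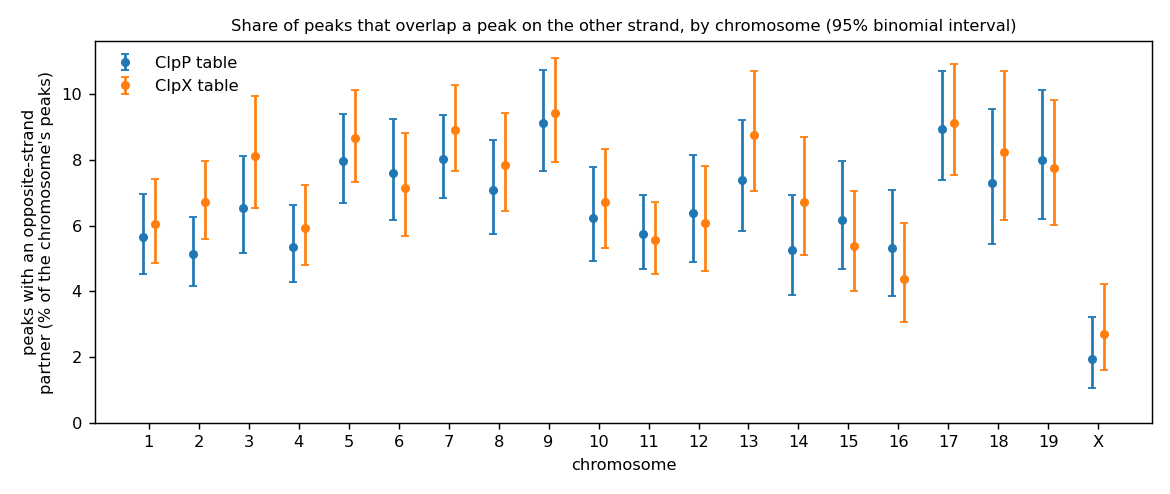
Share of a chromosome's peaks that have a partner on the opposite strand (%), for chromosomes 1 to 19 and X, with exact 95% binomial intervals as bars; blue is the ClpP table and orange the ClpX table. The X chromosome has the lowest point in both tables, at 1.94% and 2.70%.

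Members were called lower more often than higher in ClpP cKO, and the other way round in ClpX cKO, as were all peaks. Calls in either direction covered 19.6% of all peaks in the ClpP table and 20.1% in the ClpX table. With the authors' adjusted p under 0.05 as the call, 83 of 1602 members (5.18%, interval 4.15 to 6.38) were called higher in ClpP cKO than in WT, where 6.74% of all peaks of the table were. Called lower were 293 (18.3%, 16.4 to 20.3), where 12.8% of all peaks were. The ClpX table called 304 of 1694 members higher in ClpX cKO than in WT (17.9%, 16.1 to 19.9), where 15.1% of all peaks were, and 88 lower (5.19%, 4.19 to 6.36), where 5.0% were. The median log2 fold change of members was -0.21 in the ClpP table and 0.31 in the ClpX table, against -0.02 and 0.23 for the other peaks. Partners share bases, so members are not independent of each other, and these shares were not tested.

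The peaks of a pair mostly had like values. Both log2 fold changes had the same sign in 691 of 840 pairs of the ClpP table (82.26%, 79.51 to 84.79) and 720 of 886 of the ClpX table (81.26%, 78.54 to 83.78). The median absolute difference between partners was 0.20 and 0.27 on the log2 scale, and 10% of pairs differed by more than 1.14 and 1.37. The larger fold enrichment was 1.18 times the smaller at the median in the ClpP table and 1.17 times in the ClpX table. Across pairs, the partners' log2 fold changes had a Pearson correlation of 0.77 (840 pairs) and 0.79 (886 pairs), as a description of values that share bases and libraries. Both peaks were called higher in 20 pairs and both lower in 117 in the ClpP table. In the ClpX table these counts were 117 and 24. Only 1 peak was called in 115 and 124 pairs, neither in 585 and 620, and the calls were opposite in 3 and 1.

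**Figure D3:**
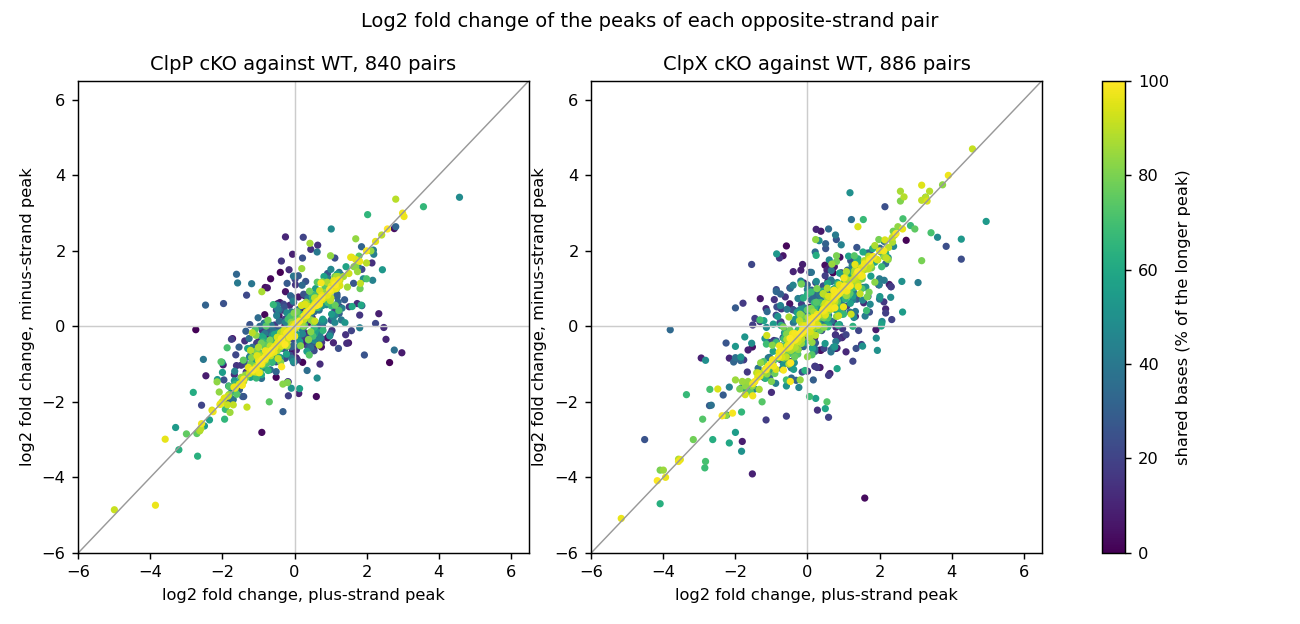
Log2 fold change of enrichment (knockout against WT) of the plus-strand peak (x axis) and of the minus-strand peak (y axis) for 840 pairs of the ClpP table (left) and 886 of the ClpX table (right), coloured by the shared bases in % of the longer peak; the grey diagonal marks equal values. Pairs that share most of their bases lie close to the diagonal, and those far from it are mostly pairs with a low share.

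Peaks that lay close together on opposite strands without sharing a base were less alike. Such neighbours, with a gap of at most 1000 bases, formed 658 and 722 pairs. They had the same sign in 53.8% (49.9 to 57.7) and 60.1% (56.4 to 63.7), with a median absolute difference of 0.83 and 0.96 and a correlation of 0.09 and 0.16. Both neighbours were called higher in 1 pair and both lower in 27 in the ClpP table, and in 36 and 1 in the ClpX table. Their calls were opposite in 13 and 6 pairs. At the other end, overlapping peaks of different genes on the same strand formed 398 and 414 pairs, with the same sign in 87.7% and 91.5% and a median absolute difference of 0.086 and 0.089. Peaks on opposite strands that share bases lay between these sets on both measures.

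Likeness followed the share of common bases. In the ClpP table the same sign was found in 59.2% of the 169 pairs that share under 25% of the longer peak, in 75.3% of 198 at 25 to 50%, in 88.5% of 148 at 50 to 75%, in 93.4% of 151 at 75 to 90% and in 97.7% of 174 at 90 to 100%. The median absolute difference over the same classes was 0.66, 0.37, 0.21, 0.12 and 0.04. In the ClpX table the same sign was found in 56.5%, 78.7%, 83.7%, 88.6% and 97.1% of 161, 188, 190, 176 and 171 pairs, with median differences of 0.93, 0.51, 0.33, 0.16 and 0.05. All pairs with opposite calls, 3 and 1, shared under 25% of the longer peak.

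**Figure D4:**
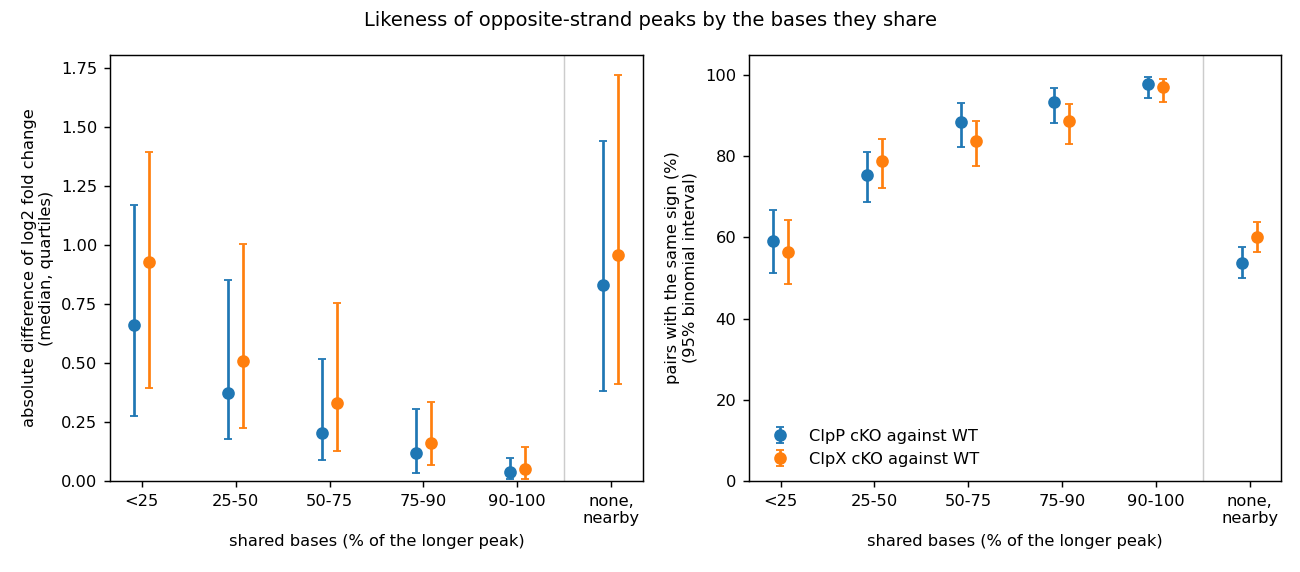
Likeness of opposite-strand peaks by the bases they share, in % of the longer peak; the last position holds opposite-strand neighbours with a gap of at most 1000 bases. The left panel shows the median and quartiles of the absolute difference of log2 fold change, the right panel the share of pairs with the same sign (%) with exact 95% binomial intervals, blue for ClpP cKO against WT and orange for ClpX cKO against WT. Pairs sharing 90 to 100% of the longer peak have median differences of 0.04 and 0.05 and neighbours of 0.83 and 0.96.

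Likeness also varied with arrangement and gene kind, over a narrower range. The median difference between partners was 0.16 (ClpP) and 0.19 (ClpX) for tail-to-tail pairs, 0.24 and 0.35 for head-to-head pairs, and 0.28 and 0.38 for nested pairs. Tail-to-tail pairs shared 239 and 241 bases at the median, head-to-head pairs 175 and 174.5, nested pairs 170 and 148. Pairs of protein-coding genes had the same sign in 84.2% and 84.7%, and pairs of a long non-coding RNA with a protein-coding gene in 79.1% and 74.0%.

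Among pairs in which both peaks were called higher in ClpP cKO, Spag17 with Wdr3 led the ranking by the weaker of both adjusted p. Spag17, a protein of the central apparatus of the sperm flagellum, ended opposite Wdr3, a WD-repeat protein of ribosome biogenesis, on chromosome 3. The Spag17 peak (100142572 to 100143082) in the authors' deposited table for ClpP had a log2 fold change of 1.51 (adjusted p = 1.78e-06) and the Wdr3 peak one of 1.40 (adjusted p = 7.41e-06), with 500 shared bases. For ClpX the authors' deposited table gave -0.20 and -0.22, neither called. Zc3h14, a poly(A)-binding zinc-finger protein, and Eml5, a microtubule-associated protein, had 0.76 and 0.70 in the authors' deposited table for ClpP, with 539 shared bases, and -0.31 and -0.39 in that for ClpX. Eif2ak1, the heme-regulated kinase that also relays mitochondrial stress to eIF2alpha, had 0.71 beside 0.92 for Aimp2, a scaffold of the multi-tRNA synthetase complex, in the authors' deposited table for ClpP. Atg4d, a protease that processes Atg8 proteins in autophagy, had 0.92 beside 0.83 for Kri1, a nucleolar protein, in the authors' deposited table for ClpP.

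The other pairs that the rule named as higher in ClpP cKO ran from slight to large. Selenoo, a mitochondrial AMP-transferase, and Tubgcp6, a subunit of the gamma-tubulin ring complex, had the highest values of the 8 named pairs, 2.19 and 2.02 in the authors' deposited table for ClpP. They shared 151 bases, and the pair was not in the ClpX table. Dlec1 with Acaa1b, a peroxisomal thiolase, had 0.82 and 1.32, Cfl1, the actin-severing protein cofilin, with Snx32 0.46 and 0.69, and Slc24a5 with Myef2 0.76 and 0.78, all in the authors' deposited table for ClpP.

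Pairs called lower in ClpP cKO were more frequent, and the leading one held a testis kinase subunit. Phkg2, the catalytic subunit of phosphorylase kinase in testis and liver, faced Ccdc189, a coiled-coil protein, on chromosome 7 (127582830 to 127583307 and 127582830 to 127583366). They had -0.83 (adjusted p = 2e-88) and -0.82 (adjusted p = 1.58e-90) in the authors' deposited table for ClpP, and 0.07 and 0.04 in that for ClpX. Rpgrip1, a protein of the photoreceptor connecting cilium, and Supt16, a subunit of the histone chaperone FACT, had -0.77 and -0.98 in the authors' deposited table for ClpP, over 926 shared bases. Some peaks of this group entered more than 1 pair. The Abi3 peak on chromosome 11 lay opposite peaks named for both Zfp652 and Phospho1, a phosphatase of bone mineralisation, at -1.61 for Abi3, -1.68 for Zfp652 and -1.64 for Phospho1 in the authors' deposited table for ClpP. The same held for the Fam57a peak opposite Gemin4, a component of the SMN complex, and Glod4, at -0.88, -0.89 and -0.87 in the authors' deposited table for ClpP.

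Pairs with both peaks called in the ClpX table were mostly higher, 117 of 141. Mrnip and Sqstm1, the autophagy receptor p62, had 1.55 (adjusted p = 1.26e-12) and 1.56 (adjusted p = 3.98e-13) in the authors' deposited table for ClpX, over 510 shared bases on chromosome 11, and -0.07 and -0.08 in that for ClpP. Lrrc41 and Rad54l, a translocase of homologous recombination, had 1.26 and 1.24 in the authors' deposited table for ClpX, and 0.45 and 0.39 in that for ClpP, where only Lrrc41 was called. Kif20a, a mitotic kinesin, and Cdc23, a subunit of the anaphase-promoting complex, had 1.70 and 1.86 in the authors' deposited table for ClpX, over 379 shared bases.

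Head-to-head and nested pairs appeared in the same ranking. Gpn3, a GTPase needed for nuclear import of RNA polymerase II, and Fam216a are the pair whose promoters are printed above. In the authors' deposited table for ClpX they had 1.79 (adjusted p = 2e-45) and 1.83 (adjusted p = 6.31e-47) over 473 shared bases, and in that for ClpP -0.25 and -0.23 over 149. The Ptprr peak, of a receptor-type tyrosine phosphatase, faced 3 peaks of Taf7l2 that overlap each other. The Ptprr peak had 1.31 in the authors' deposited table for ClpX and the Taf7l2 peaks 1.47, 1.52 and 1.42, all called higher, while the fold enrichment of the Ptprr peak was 19.5 and that of the Taf7l2 peaks 2.31, 10.9 and 3.44.

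Pairs with both peaks called lower in ClpX cKO numbered 24. Ubl5, a ubiquitin-like protein linked to the mitochondrial unfolded protein response in Caenorhabditis elegans, met Fbxl12, an F-box protein, head to head. In the authors' deposited table for ClpX they had -2.83 (adjusted p = 0.00977) and -3.58 (adjusted p = 0.00537) at 20643267 to 20643565 and 20643300 to 20643510 on chromosome 9. The pair was called at another site in the authors' deposited table for ClpP, 20644552 to 20644761 and 20644557 to 20644767, with -3.86 and -4.74. That site holds 205 bases shared by both peaks and overlaps the Ubl5 window printed above. The ClpX pair at that place, whose shared bases are the capitals of that window, had -0.28 and -0.26 in the authors' deposited table, neither called.

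Cdc37l1, a co-chaperone of Hsp90, and Ak3, the adenylate kinase of the mitochondrial matrix, had -2.17 and -3.09 in the authors' deposited table for ClpX. B3gnt4 and Diablo, a mitochondrial protein that counters inhibitors of apoptosis, had -1.72 and -1.58 in the authors' deposited table for ClpX. The other named pairs of this direction were Tasor with Ccdc66, Alg1 with Eef2kmt, Invs with Tex10 and Echdc1 with Rnf146. They ranged from -2.34 (Alg1) to -1.30 (Rnf146) in the authors' deposited table for ClpX.

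Of 618 gene pairs found in both tables, 43 had partner peaks called in the same direction as each other in each table. Of these 43 gene pairs, 14 held no predicted gene. Over all peaks, 6.74% were called higher and 12.8% lower in the ClpP table, and 15.1% and 5.0% in the ClpX table. The counts of gene pairs were not tested. The 6 of top rank among the 14 are given side by side, since the comparisons share the WT libraries. Tesk1, a kinase first described in testis that phosphorylates cofilin, ended opposite Cd72, a B-cell receptor protein, on chromosome 4. The authors' deposited table for ClpP gave -0.69 and -0.70 (adjusted p = 5.01e-79 and 3.98e-80) over 893 shared bases. The authors' deposited table for ClpX gave 0.76 and 0.77 (adjusted p = 1.58e-49 and 3.16e-50) over 977. Dedd, a death-effector-domain protein, and Nit1, an amidase of the nitrilase family, had -0.64 and -0.69 in the authors' deposited table for ClpP at 171340318 to 171341314 and 171340718 to 171341316 on chromosome 1. At those same positions they had 1.28 and 1.12 in the authors' deposited table for ClpX, and at a second ClpX site 2.42 and 2.42.

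Ncaph2, a condensin II subunit, and Sco2, a copper chaperone for cytochrome c oxidase assembly in mitochondria, had -0.66 and -0.73 in the authors' deposited table for ClpP and 0.75 and 1.0 in that for ClpX. Wdr48, an activator of deubiquitinases, and Gorasp1, a Golgi stacking protein, had -0.41 and -0.59 in the authors' deposited table for ClpP and 0.40 and 0.38 in that for ClpX. Spsb3 and Eme2, a partner of the Mus81 endonuclease, had -0.39 and -0.48 in the authors' deposited table for ClpP and 0.81 and 0.63 in that for ClpX. Rnf139, a ubiquitin ligase of the endoplasmic reticulum, and Tatdn1 were lower in both knockouts, at -0.72 and -0.59 in the authors' deposited table for ClpP and -0.33 and -0.74 in that for ClpX. Pairs of lower rank also held equal directions. Cfl1 and Snx32 had 0.46 and 0.69 in the authors' deposited table for ClpP and 0.77 and 0.86 in that for ClpX. Echdc1 and Rnf146 had -0.73 and -1.17 in the authors' deposited table for ClpP and, at another site, -1.35 and -1.30 in that for ClpX.

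**Figure D5:**
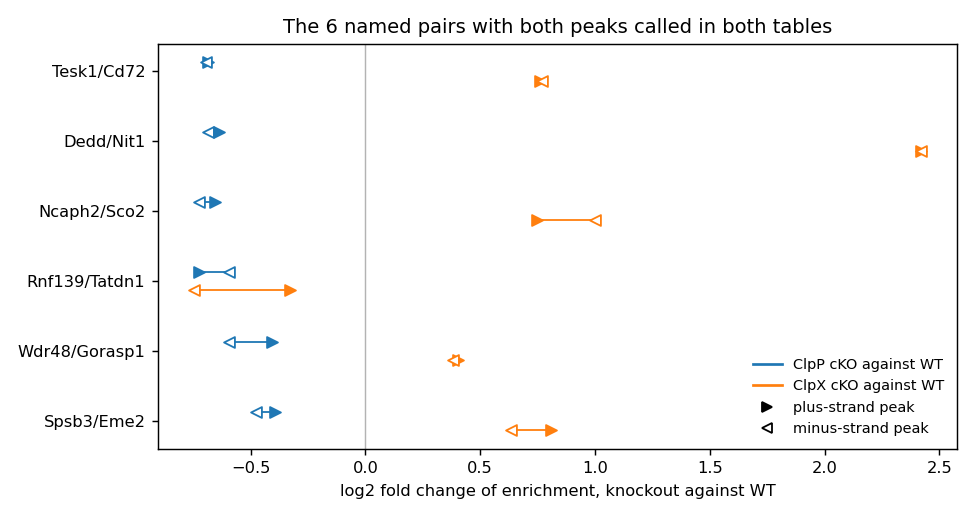
Log2 fold change of enrichment (knockout against WT) of both peaks of the 6 gene pairs of top rank, out of 14 without a predicted gene that were called in both tables; filled triangles are plus-strand peaks, open triangles minus-strand peaks, blue is ClpP cKO and orange ClpX cKO, each against WT. In 5 pairs the ClpP cKO values lie below 0 and the ClpX cKO values above it, and Rnf139 with Tatdn1 lies below 0 in both. Each table's own best-ranked peaks are drawn, so for Dedd with Nit1 the ClpX cKO values come from another site than the ClpP cKO values.

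Genes of mitochondria and of mTORC1 signalling were looked up from lists chosen with earlier results of these data known. Of the listed nuclear genes for mitochondrial proteins with a peak, 6 of 55 (ClpP) and 5 of 52 (ClpX) lay opposite another peak, and of the mTORC1 and autophagy list 7 of 52 and 7 of 55, where 10.4% and 11.2% of all genes with a peak did. Of these members, the mitochondrial list had 1 gene called higher and 1 lower (ClpP) and 2 higher and 0 lower (ClpX). The mTORC1 and autophagy list had 1 higher and 0 lower (ClpP) and 4 higher and 1 lower (ClpX). Over all peaks, 6.74% were called higher and 12.8% lower in the ClpP table, and 15.1% and 5.0% in the ClpX table. Those are shares of peaks and not of genes, and counts this small are not read further. Twnk, the helicase of mitochondrial DNA replication, met Mrpl43, a protein of the mitochondrial ribosome, head to head on chromosome 19. The authors' deposited table for ClpX gave 1.68 for Twnk (adjusted p = 2.51e-11) and 0.79 for Mrpl43 (adjusted p = 1.17e-06), and the authors' deposited table for ClpP gave 0.59 (adjusted p = 0.0257) and 0.03 (adjusted p = 0.571). The Twnk peak lay inside the Mrpl43 peak but for 1 base, and the shared bases were 35.6% (ClpP) and 36.8% (ClpX) of the Mrpl43 peak. The values of the partners differed by 0.56 in ClpP and 0.89 in ClpX. Pairs sharing 25 to 50% of the longer peak had median differences of 0.37 and 0.51, with upper quartiles of 0.85 and 1.0.

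Other genes of mitochondrial proteins had values close to those of their partners, or far from them. Htra2, a protease of the intermembrane space, had 1.60 and its partner Loxl3, a lysyl oxidase, 1.58 in the authors' deposited table for ClpX, against -0.10 and -0.07 in that for ClpP, where neither was called. Tfb1m, a methyltransferase of mitochondrial ribosomal RNA, had -0.87 and was called in the authors' deposited table for ClpP, and its partner Tiam2 had -0.77 and was not. The call was on Tiam2, at -2.26, in the authors' deposited table for ClpX, and Tfb1m had -0.44. Uqcrc2, a core protein of complex III, had 0.38 and was not called, and Pdzd9 opposite it had -0.55 (adjusted p = 1.58e-17) in the authors' deposited table for ClpP.

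The 1 pair of mitochondrially encoded genes was mt-Nd5 with mt-Nd6, subunits of complex I that are encoded on opposite strands and overlap at their ends. The mt-Nd5 peak (12340 to 13565) had 2.74 and the mt-Nd6 peak (13552 to 14070) 2.28 in the authors' deposited table for ClpX, with 14 shared bases. The fold enrichments were 2.08 for mt-Nd5 and 2.73 for mt-Nd6 in the authors' deposited table. The log10 of the adjusted p was -434 for both in the authors' deposited table, the lowest value the tables hold. The shared bases were 2.70% of the mt-Nd6 peak (519 bases) and 1.14% of the mt-Nd5 peak (1226 bases). In the ClpP table no mitochondrial peak had an opposite-strand partner, of 7 peaks on that chromosome.

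In the mTORC1 and autophagy list, the named pairs of the ClpX table were higher in both genes or in 1. Lamtor1, the Ragulator subunit that anchors mTORC1 regulators to lysosomes, had 1.32 and Lrrc51 1.31 in the authors' deposited table for ClpX, and both had -0.33, not called, in that for ClpP. Nprl3, a subunit of the mTORC1 inhibitor GATOR1, had 1.78 and Mpg, a DNA glycosylase, 1.92 in the authors' deposited table for ClpX. Stk11, the kinase LKB1 upstream of AMPK, had 1.20 (adjusted p = 0.000851) and Cbarp 0.85 (adjusted p = 0.108) in the authors' deposited table for ClpX. Tsc2, an mTORC1 inhibitor, had 2.91 and Pkd1 3.04 in the authors' deposited table for ClpP without a call (adjusted p = 0.326 and 0.294), over 118 shared bases.

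Of the meiosis list, 3 of 39 genes (ClpP) and 2 of 36 (ClpX) lay opposite another peak, where 10.4% and 11.2% of all genes with a peak did. None of these members was called in either table, where 19.6% (ClpP) and 20.1% (ClpX) of all peaks were. With so few genes this is not read further. Among these members were Cntd1, a cyclin-like factor of crossover formation, and in the ClpP table Sycp3, a component of the synaptonemal complex. None of the 13 and 14 piRNA pathway genes with a peak was a member.

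Of the spermatid list, 5 of 44 (ClpP) and 5 of 43 (ClpX) genes were members (11.4% and 11.6%), close to the 10.4% and 11.2% of all genes with a peak. Of these genes, 3 had a member peak called higher and 1 had one called lower (ClpP), and 3 and 0 in the ClpX table. Of all peaks, 6.74% and 12.8% were called higher and lower in the ClpP table, and 15.1% and 5.0% in the ClpX table. Those are shares of peaks, whereas a gene counts if any of its member peaks was called. Counts of so few genes are not read further. Dnah8, an axonemal dynein heavy chain, had 1.41 and the predicted gene Gm9937 1.45 in the authors' deposited table for ClpX, against 0.39 and 0.36 in that for ClpP, and all 4 were called. Tnp1, the transition protein that replaces histones in spermatids, had 0.62 and the clone-named gene 1700027A15Rik 1.56 in the authors' deposited table for ClpX. For ClpP the authors' deposited table gave 0.29, called, and 0.35, not called. Hspa1l, a testis member of the Hsp70 family, had -0.79 and Gm10501 -0.51 in the authors' deposited table for ClpP, both called.

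Of the m6A machinery, 1 of 23 genes (ClpP) and 1 of 22 (ClpX) was a member: Cbll1, a subunit of the methyltransferase complex, opposite Gm29542 on chromosome 12. The Gm29542 peak had -0.47 in the authors' deposited table for ClpP, the Cbll1 peak that shares 587 bases with it -0.44, and the Cbll1 peak that shares 4 bases 0.60, all called. In the authors' deposited table for ClpX these were 0.90, 0.96 with 563 shared bases and 1.83 with 34.

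Beside that Cbll1 peak, the other pairs with opposite calls were few. Vps4a, an ATPase of endosomal sorting, had -0.41 (adjusted p = 5.62e-08) and Pdf, the mitochondrial peptide deformylase, 0.63 (adjusted p = 0.00151) in the authors' deposited table for ClpP, with 57 shared bases. The same 2 peaks had 0.85 and 0.80 in the authors' deposited table for ClpX, both called. Entr1, an endosomal protein, had 1.73 and Gm13563 -0.36 in the authors' deposited table for ClpP, over 118 shared bases. In the ClpX table the pair with opposite calls was Gm36864, at 1.59, and 1700028J19Rik, at -4.55 in the authors' deposited table, over 8 shared bases. These pairs with predicted genes lie outside the rule for named genes and were chosen after their values were seen, since the counts are 3 and 1.

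Where only 1 peak of a pair was called, the partners could lie far apart. Ahsa2, an activator of Hsp90, had 2.36 and the deubiquitinase Usp34 0.24 in the authors' deposited table for ClpP, over 151 shared bases. A second Ahsa2 peak shared 599 bases with the same Usp34 peak and had 0.00 in the authors' deposited table. Pask, a PAS-domain kinase, had -2.26 and the phosphatase regulator Ppp1r7 -0.32 in the authors' deposited table for ClpP. Mif4gd, a protein of histone mRNA translation, had 0.61 (adjusted p = 3.16e-20) and Mrps7, of the mitochondrial ribosome, -1.79 (adjusted p = 0.0708) in the authors' deposited table for ClpX. The uncalled partner was the shorter peak here, 149 against 691 bases. Dgka, a diacylglycerol kinase, had 3.54 and Pmel 1.18 in the authors' deposited table for ClpX.

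Antisense transcripts named for their host (gene symbols ending in os) formed 16 pairs in the ClpP table and 26 in the ClpX table. This class was set up after the pairs were seen. Of these pairs, 9 and 15 had the same sign. In the ClpP table, Gimap1os peaks starting at 48739650 and 48739652 were both paired with a Gimap1 peak at 0, which counted as a different sign. Lef1os1 and Lef1, a transcription factor of Wnt signalling, had -1.40 and -1.41 in the authors' deposited table for ClpP over 533 shared bases, both called, and 0.06 and 0.11 in that for ClpX. Usp46os2 and Usp46, a deubiquitinase, had -0.97 and -0.98 in the authors' deposited table for ClpP, both called. Efhd1os had 1.41 and Efhd1, a calcium-binding protein of mitochondria, 0.89 in the authors' deposited table for ClpX, both called. Bach2os and Bach2, a transcription repressor of lymphocytes, had -0.70 and 2.98 in the authors' deposited table for ClpP without a call, over 38 shared bases.

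Some of the largest ratios of fold enrichment lay between a gene and a predicted or antisense transcript. Keap1, the adaptor that targets Nrf2 for degradation, had a peak with a fold enrichment of 34.2 in the authors' deposited table for ClpP, and the 3 Gm16754 peaks opposite it had 2.78, 3.0 and 3.83. Fadd, an adaptor of death receptors, had 45.9 and Faddos 4.38 in the authors' deposited table for ClpP. Pairs with the most shared bases were close in enrichment. Sgo2a, the shugoshin that protects centromeric cohesion in meiosis, and Kctd18 shared 2342 bases (ClpP) and 2337 (ClpX), with equal fold enrichments of 22.1 in the authors' deposited table for ClpP and 16.4 in that for ClpX. Their log2 fold changes were 0.33 and 0.28 in the authors' deposited table for ClpP and 0.30 and 0.03 in that for ClpX, and none was called.

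Just inside the rule, pairs shared 2 to 7 bases. Orc1, a subunit of the origin recognition complex, and Gm12743 shared 2 bases, with 2.64 and -0.96 in the authors' deposited table for ClpP. Prc1, a microtubule bundler of cytokinesis, and Rccd1 shared 3 bases, with 0.23 and -0.95 in the authors' deposited table for ClpP. Il4i1 and Tbc1d17 shared 4 bases, with 0.78 and -0.58 in the authors' deposited table for ClpX. Kcnmb4os1 and Kcnmb4, a subunit of a potassium channel, shared 7 bases and had 0.71 and 1.42 in the authors' deposited table for ClpX, both called higher. Just outside it, Spsb3 and Mapk8ip3 abut with a gap of 0 bases, at -0.39 and -1.10 in the authors' deposited table for ClpP and 0.81 and -0.95 in that for ClpX. Tmem59 and Tceanc2 also abut, with -0.36 and -0.79 in the authors' deposited table for ClpP.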

How the data were processed

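The 6 libraries (IP and input of ClpP cKO, ClpX cKO and WT male germ cells) enter 2 tables, and per the file headers each line is 1 peak. The authors deposited a p-value for each peak, a score that is its log10, a fold enrichment (linear ratio of IP over input) and, for knockout against WT, a log2 fold change with log10 p-value scores. Per the submitters' processing notes, coordinates are on GRCm38 (mm10). The sources used here do not give the aligner, peak caller, normalisation, strandedness or depth, so intervals cover only counts of peaks.

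Peak blocks were intersected on opposite strands (Python 3.11.15, pandas 2.3.3, numpy 2.4.6, scipy 1.17.1, matplotlib 3.10.9). The overlap step was tested on simulated data and gave the base-by-base count in 20 of 20 draws of 300 peaks. Gene spans came from RefSeq (GRCm38.p6) by symbol, within 100000 bases on the same chromosome, and placed 12363 of 13334 genes (ClpP) and 12173 of 13085 (ClpX), and 1133 of 1382 and 1173 of 1461 member genes. Peaks with an adjusted p-value of the authors under 0.05 count as called. Intervals are exact binomial (Clopper-Pearson, 95%). No test across replicates was possible.

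Members and lists were chosen with earlier results of these data known. Named pairs followed a rule per table that ranked pairs by the larger adjusted p-value. Pairs without a predicted gene gave up to 8 per direction with both peaks called, up to 6 called in opposite directions, up to 4 with 1 peak called and the widest difference, and up to 6 called in both tables. All pairs, predicted genes included, gave the mitochondrial pairs, up to 4 per gene list, the 4 pairs sharing most bases, the 3 peaks with most partners, the 3 pairs sharing fewest bases with the 3 nearest outside, and the 4 with the widest ratio of fold enrichment. Alternatives changed the overlap, the thresholds, the peaks used and the arrangement, and the closing section gives their effect. A gene that the rule takes is left out of the text.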

Additional observations from a re-analysis of the deposited data

How the results depend on the processing

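Of 70 alternatives to 18 values, 8 kept the calls while shifting the fold changes, so their counts could not change. Of the other 62, 45 stayed close to the reported value and 17 moved. Requiring the shared bases to cover 50% of the shorter peak raised the share of pairs with the same sign to 86.07% (ClpP) and 83.81% (ClpX), and lowered the median difference between partners to 0.16 and 0.23. Where a call also needed a log2 fold change of 1 or more in size, members called higher numbered 38 and lower 106 in the ClpP table, and members called higher numbered 190 in the ClpX table. Pairs called in the same direction then numbered 42 (ClpP) and 85 (ClpX), and pairs called in opposite directions 0 (ClpP). With an adjusted p under 0.01, members called higher numbered 43 (ClpP) and lower 44 (ClpX), pairs called in the same direction 92 (ClpX) and in opposite directions 0 (ClpX). These thresholds keep fewer peaks by construction. With at least 25 shared bases, opposite calls numbered 0 in the ClpX table, where the 1 pair shares 8 bases. When the arrangement was read from the peaks' own starts and ends, 30.48% (ClpP) and 28.56% (ClpX) of pairs were tail to tail, over all 840 and 886 pairs, against 546 and 558 with known gene spans. Subtracting the median of all peaks, an alternative added after the data were seen, gave the same sign in 81.67% and 82.05% of pairs. No paired analysis was possible because each group holds 1 library and the tables hold the authors' comparisons, and for the same reason no library could be left out. Depth is unknown, so its limit on each value is unknown.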
